A study of Homo sapiens with 6 samples.

Results

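Double-strand break (DSB) and Fanconi repair genes were compared between OVCAR5, an ovarian cancer cell line, and OVCAR5R, a derivative resistant to the checkpoint kinase 1 (CHK1) inhibitor prexasertib (Prex). The 46 genes were listed by their known roles in repair, with earlier results of these data known. All 46 were found among the 12305 different gene symbols of the expression table. RNA-seq was done on total RNA from 3 cultures of each line, which gives 3 OVCAR5 and 3 OVCAR5R libraries. By the study's methods the parental line is wild-type for BRCA1 and BRCA2 and lacks p53. OVCAR5R was selected in rising Prex, up to 3 µM, over 3 to 4 months, was then kept in 2 µM Prex, and spent at least 4 days without the drug before use. It is 1 resistant derivative of 1 parental line, so the cultures measure the spread of these cell populations and not of resistance as such.

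CHK1 holds cells in S phase and G2 when replication is damaged and supports break repair, so its inhibitors leave cells with collapsed forks and DSBs. Such breaks are repaired by homologous recombination (HR), in which BRCA1, BRCA2, PALB2 and their partners prepare single-stranded DNA to invade a matching sequence, or by end joining, in which the Ku and DNA-PKcs proteins hold the ends together. The Fanconi pathway repairs crosslinks and protects stalled forks: a core ligase places ubiquitin on the FANCD2 and FANCI clamp, which brings in nucleases and the HR proteins. Many of these genes are expressed most in S phase and G2.

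None of the 46 genes differed between the lines at an adjusted p under 0.05 (limma with Benjamini-Hochberg adjustment over 11766 rows tested; the 46 adjusted p-values ran from 0.406 to 0.99). The whole comparison gave few such calls, 0.017% of rows higher and 0.102% lower in OVCAR5R. At an unadjusted p under 0.05, 3 members were higher in OVCAR5R (FANCM, RAD51D and RAD51AP1) and 0 were lower, where 4.14% of all rows were higher and 6.25% lower. The 3 are 6.52% of the members, near the share among all rows. In bulk RNA, fewer cells that express a gene and less of its RNA per cell cannot be told apart.

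The 6 libraries did not overlap for 10 of the 46 members (21.7%), all of them higher in OVCAR5R, where 8.4% of all rows were higher and 8.18% lower without overlap. These 10 were the recombination genes RAD51C, RAD51D and RAD51AP1, the end resection nuclease gene MRE11, the Fanconi core genes FANCB, FANCG and FANCM, the topoisomerase gene TOP3A, the ubiquitin ligase gene RNF8 and the end joining gene NHEJ1. By the mean of the log2 values, 33 of 46 members (71.7%) were higher in OVCAR5R, where 49.2% of all rows were, and the median log2 fold change was 0.16 over the members and -0.01 over all rows. This tilt of the whole list rested on OVCAR5 replicate 2. Without that library 23 of 46 (50.0%) were higher and the median was 0.01. Fold changes here are on the log2(value + 1) scale, where the value is the normalized expression value in the table, and the smallest p that an exact permutation test can give with 3 against 3 libraries is 0.1.

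**Figure D1:**
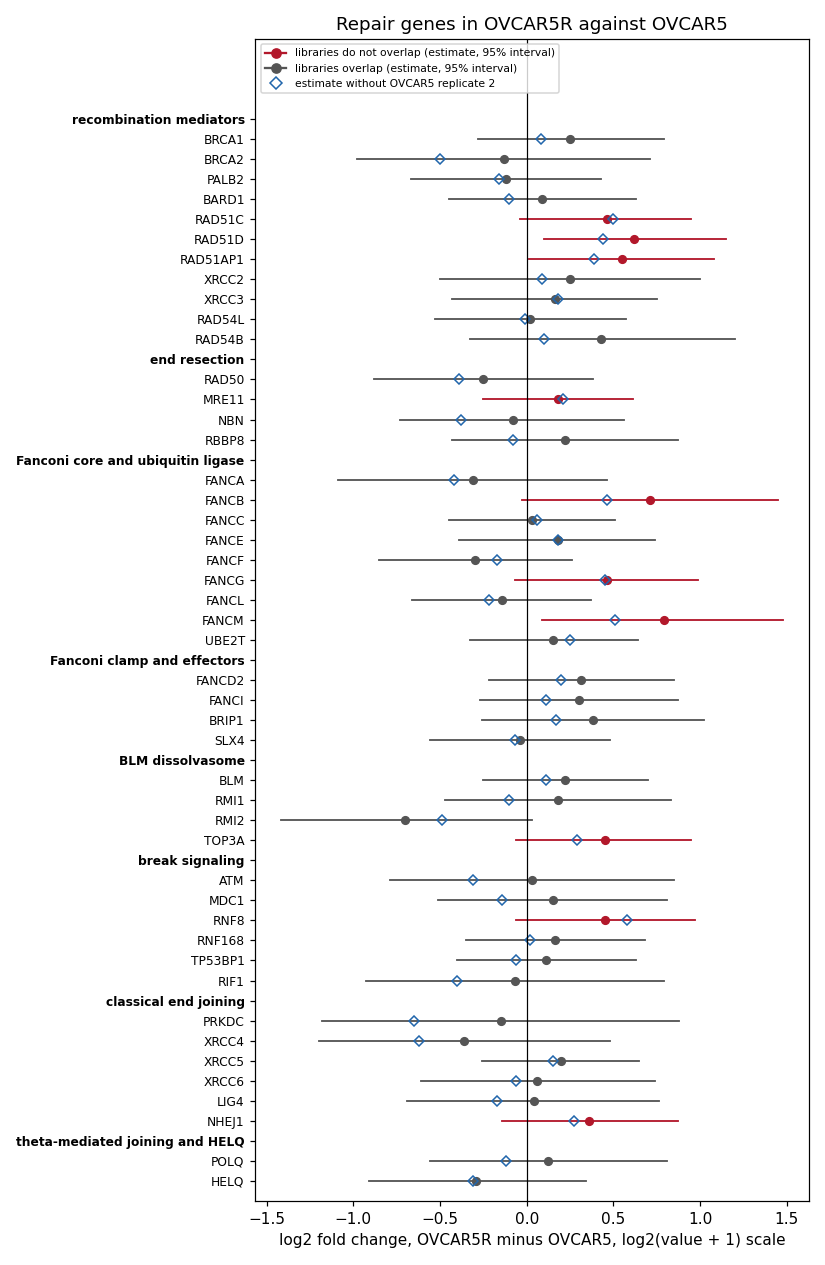
Log2 fold change of each of the 46 repair genes, OVCAR5R minus OVCAR5, on the log2(value + 1) scale, grouped by role. Points and lines are the limma estimate and its 95% interval from 3 libraries a line, red where the 6 libraries do not overlap, and open diamonds are the estimate without OVCAR5 replicate 2. The 3 intervals that clear 0 belong to RAD51D, RAD51AP1 and FANCM, and 37 of the 46 diamonds lie to the left of their points.

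The sequence upstream of an annotated start site is shown for these 3 genes, since they were the members past an unadjusted p of 0.05. RAD51D has 2 annotated starts, of which 1 is shown. Its run lies inside the gene's GENCODE 29 span, chr17:35092208-35121522, and not upstream of that span. Each run is read along the gene's strand, was taken from the RefSeq promoters on GRCh38.p14, and leaves out bases that GENCODE 29 annotates as exon. Capitals mark a CCAAT box, the site of the NF-Y factor, on either strand.
FANCM, chr14:45135680-45135929, plus strand: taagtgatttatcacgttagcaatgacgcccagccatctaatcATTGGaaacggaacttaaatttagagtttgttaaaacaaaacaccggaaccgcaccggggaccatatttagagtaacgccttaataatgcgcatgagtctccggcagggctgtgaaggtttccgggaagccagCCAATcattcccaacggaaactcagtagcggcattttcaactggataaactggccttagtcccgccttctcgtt
RAD51D, chr17:35119870-35120021, minus strand: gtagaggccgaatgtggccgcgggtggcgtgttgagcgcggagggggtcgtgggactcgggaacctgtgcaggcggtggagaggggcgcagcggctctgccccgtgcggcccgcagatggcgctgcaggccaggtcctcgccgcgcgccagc
RAD51AP1, chr12:4538640-4538797, plus strand: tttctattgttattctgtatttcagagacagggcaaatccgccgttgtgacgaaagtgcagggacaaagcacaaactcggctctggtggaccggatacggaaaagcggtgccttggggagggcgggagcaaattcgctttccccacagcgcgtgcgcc

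Motifs were searched on both strands in the 250 bases before each annotated start, for the 40 members with an entry (54 starts). FANCM held CCAAT boxes 74 and 207 bases before its start, and RAD51AP1 held one 70 bases before its RefSeq start, in a stretch that GENCODE annotates as exon and that is therefore not printed. CCAAT was found in 44.4% of the member promoters and 32.0% of all 35116 promoters. An E2F site (TTTCCCGC, TTTCGCGC, TTTGCCGC or TTTGGCGC) was found in 5.56% of member promoters and 2.79% of all, and the cell cycle homology region (TTTGAA) in 16.7% and 13.3%. Among the 13 promoters of the 10 members without overlap, 4 held CCAAT and 0 held either of the other motifs.

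Of the 11 recombination mediators, 9 were higher in OVCAR5R by their means, 2 passed an unadjusted p of 0.05 and 3 did not overlap, where 49.2%, 4.14% and 8.4% of all rows did so. Their median log2 fold change was 0.25. Without OVCAR5 replicate 2, 7 were higher, 0 passed an unadjusted p of 0.05 and the median was 0.09. RAD51D encodes a subunit of the BCDX2 complex, which acts early in HR, and lies at chr17:35092208-35121522. Its values were 29.2, 21.3 and 34.6 in OVCAR5 and 42.1, 45.2 and 43.2 in OVCAR5R. The OVCAR5R libraries were tightly grouped (mean 43.5 ± 1.61, SD, n = 3) and all lay above the parental ones, whose mean was 28.4 ± 6.66 (SD, n = 3). This gave a log2 fold change of 0.62 (95% interval 0.10 to 1.15, adjusted p = 0.406, limma), and of 0.44 without OVCAR5 replicate 2 (adjusted p = 0.487). The read-through gene RAD51L3-RFFL shares exons with RAD51D, so how the reads were divided between them is open to the authors' counting, which the sources used here do not describe.

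RAD51AP1 encodes a protein that promotes strand invasion (chr12:4538798-4560048). It was at 17.1, 13.3 and 20.7 in OVCAR5 and 27.3, 23.5 and 24.2 in OVCAR5R. The lowest resistant library was above the highest parental one, by less than the range within either line. Its log2 fold change was 0.55 (95% interval 0.01 to 1.08, adjusted p = 0.47, limma), and 0.39 without OVCAR5 replicate 2 (adjusted p = 0.58). RAD51C, a subunit of the BCDX2 and CX3 complexes (chr17:58692573-58735611), was at 13.4, 17 and 17.9 in OVCAR5 and 22.9, 21.2 and 22.9 in OVCAR5R. Its 3 OVCAR5R values spanned 1.7 units and the gap to the parental libraries was 3.3. The log2 fold change of 0.46 ± 0.21 (SE, adjusted p = 0.50, limma) became 0.50 without OVCAR5 replicate 2, so this gene did not depend on that library.

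The remaining mediators overlapped. XRCC2 and XRCC3, which complete the BCDX2 and CX3 complexes, had log2 fold changes of 0.25 and 0.16. XRCC2 was split within the lines, at 16.2, 15.4 and 29.7 in OVCAR5 and 18.1, 21.9 and 32.1 in OVCAR5R, so replicate 3 of each line was high. Of the RAD54 motor proteins, which act during the homology search, RAD54B had a log2 fold change of 0.43 that fell to 0.10 without OVCAR5 replicate 2, and RAD54L was level at 0.02. Exons of RAD54B are shared with FSBP.

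BRCA1 and BRCA2, the tumor suppressors at the center of HR, were not separated between the lines. BRCA1 was at 57.6, 45.5 and 74.7 in OVCAR5 and 65.5, 65.8 and 77.8 in OVCAR5R, with a log2 fold change of 0.25 (95% interval -0.28 to 0.79). This was 0.08 without OVCAR5 replicate 2 and 0.43 without OVCAR5 replicate 3. BRCA2 was at 43.0, 20.1 and 45.0 in OVCAR5 and 44.1, 23.1 and 28.8 in OVCAR5R. Within each line BRCA2 was lowest in replicate 2, and this spread was wider than the distance between the line means of 36 and 32. Its log2 fold change was -0.13 (95% interval -0.98 to 0.71) and -0.50 without OVCAR5 replicate 2. PALB2, which bridges BRCA1 to BRCA2, and BARD1, the partner of BRCA1, had log2 fold changes of -0.12 and 0.09.

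**Figure D2:**
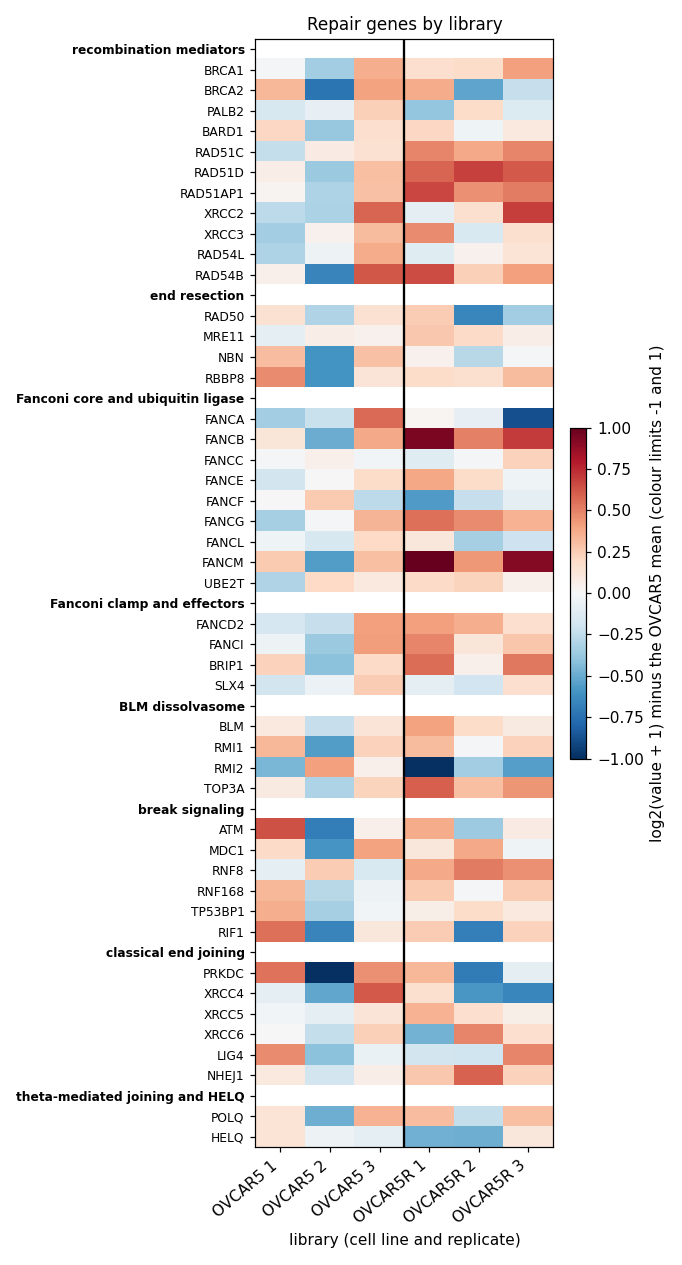
Each repair gene in each library, as log2(value + 1) minus the mean of the 3 OVCAR5 libraries, with colour limits at -1 and 1 and roles in bold. The OVCAR5 replicate 2 column is blue over most rows (median -0.30), while the 3 OVCAR5R columns have medians of 0.26, 0.14 and 0.17.

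Of the 4 end resection genes, 2 were higher and 2 lower by their means, where 49.2% of all rows were higher. MRE11 is the nuclease of the MRE11-RAD50-NBN complex that senses broken ends and starts resection (chr11:94415578-94493908). It was at 37.2, 42.0 and 41.2 in OVCAR5 and 48.5, 45.9 and 42.1 in OVCAR5R. These values do not overlap, but the lines nearly touch and the log2 fold change was 0.18 ± 0.19 (SE, adjusted p = 0.776, limma). With all libraries the estimates for its partners RAD50 and NBN were under 0, by less than their SE of 0.27 and 0.28. RAD50 was at 174.9, 128.1 and 174.4 in OVCAR5 and 188, 100.3 and 123.7 in OVCAR5R (log2 fold change -0.25), and NBN had a log2 fold change of -0.08 that became -0.38 without OVCAR5 replicate 2, when its OVCAR5R libraries (101.7 to 127.6) all lay under the OVCAR5 ones (153.5 and 151.6). RBBP8, which encodes the resection cofactor CtIP, had a log2 fold change of 0.22 with all libraries and -0.08 without OVCAR5 replicate 2. MRE11 exons overlap ANKRD49 on the other strand, and whether reads were counted by strand was not given in the sources used here.

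Of the 9 genes of the Fanconi core and its ubiquitin-conjugating enzyme, 6 were higher by their means and 3 did not overlap, where 49.2% and 8.4% of all rows did so. The median log2 fold change was 0.15, and was 0.18 without OVCAR5 replicate 2 and 0.02 without OVCAR5 replicate 1. FANCM encodes the DNA translocase that anchors the core complex at blocked forks (chr14:45135940-45200890). Its values were 21.4, 11.7 and 21.9 in OVCAR5 and 36.6, 24.1 and 34.3 in OVCAR5R. In both lines replicate 2 was the lowest, and the OVCAR5R libraries were all higher than the highest OVCAR5 library. Its log2 fold change of 0.79 was the highest of the 46 (95% interval 0.09 to 1.48, adjusted p = 0.427, limma), and was 0.51 without OVCAR5 replicate 2 (adjusted p = 0.521).

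FANCB, the X-linked subunit of the catalytic module (chrX:14835961-14873069), was at 4.51, 2.58 and 5.6 in OVCAR5 and 8.75, 6.15 and 7.21 in OVCAR5R. It was the least expressed member per length in OVCAR5, and its lowest library still held an estimated 89 reads. The fitted log2 fold change was 0.71 ± 0.32 (SE, adjusted p = 0.491, limma), and 0.46 without OVCAR5 replicate 2. FANCG, a scaffold subunit of the core (chr9:35073835-35080016), was at 25.9, 32.6 and 42.0 in OVCAR5 and 48.5, 46.0 and 42.3 in OVCAR5R. The parental libraries spread widely and the highest of them nearly met the lowest resistant one. Its log2 fold change was 0.46 ± 0.23 (SE, adjusted p = 0.534, limma), and 0.45 without OVCAR5 replicate 2.

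The other core genes did not follow. FANCA, a scaffold subunit, was at 43.6, 47.8 and 83.4 in OVCAR5 and 56.7, 52.6 and 29.9 in OVCAR5R, so that it was lowest in OVCAR5R replicate 3 and highest in OVCAR5 replicate 3 (log2 fold change -0.31). FANCF, an adaptor of the complex, and FANCL, its catalytic ubiquitin ligase, had log2 fold changes of -0.30 and -0.14. FANCC and FANCE, which recruit the FANCD2 substrate, had log2 fold changes of 0.03 and 0.18, and UBE2T, the ubiquitin-conjugating enzyme that works with FANCL, 0.15. FANCA shares exonic bases with ZNF276 on the other strand.

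The substrates of the core ligase overlapped between the lines. FANCD2 (chr3:10026414-10101930) was at 40.7, 39.1 and 61.3 in OVCAR5 and 61.6, 59.5 and 52.0 in OVCAR5R. OVCAR5 replicate 3 alone reached the resistant range. For FANCD2 the log2 fold change was 0.31 (95% interval -0.22 to 0.85, adjusted p = 0.666, limma). FANCI, which forms the clamp with FANCD2, had a log2 fold change of 0.30 and BRIP1, the FANCJ helicase, 0.38, and both shrank without OVCAR5 replicate 2, to 0.11 and 0.17. SLX4, the scaffold of the crosslink nucleases, was at -0.04.

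In the BLM dissolvasome, which separates joined recombination intermediates without crossing over, the estimates of TOP3A and RMI2 lay on opposite sides of 0. TOP3A, the topoisomerase of the complex (chr17:18271428-18315007), was at 34.9, 26.3 and 38.2 in OVCAR5 and 50.1, 40.5 and 44.8 in OVCAR5R. The groups were 2.3 units apart. For TOP3A the log2 fold change was 0.45 ± 0.22 (SE, adjusted p = 0.522, limma), and 0.29 without OVCAR5 replicate 2. RMI2, an OB-fold subunit of the complex (chr16:11249619-11381662), was at 27.8, 51.9 and 40.1 in OVCAR5 and 16.3, 30.2 and 26.2 in OVCAR5R. OVCAR5 replicate 1 lay within the OVCAR5R range and the other OVCAR5 libraries above it. Its log2 fold change of -0.70 (95% interval -1.42 to 0.03, adjusted p = 0.491, limma) was the lowest of the 46, and was -0.49 without OVCAR5 replicate 2. The BLM helicase and RMI1 had log2 fold changes of 0.22 and 0.18.

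**Figure D3:**
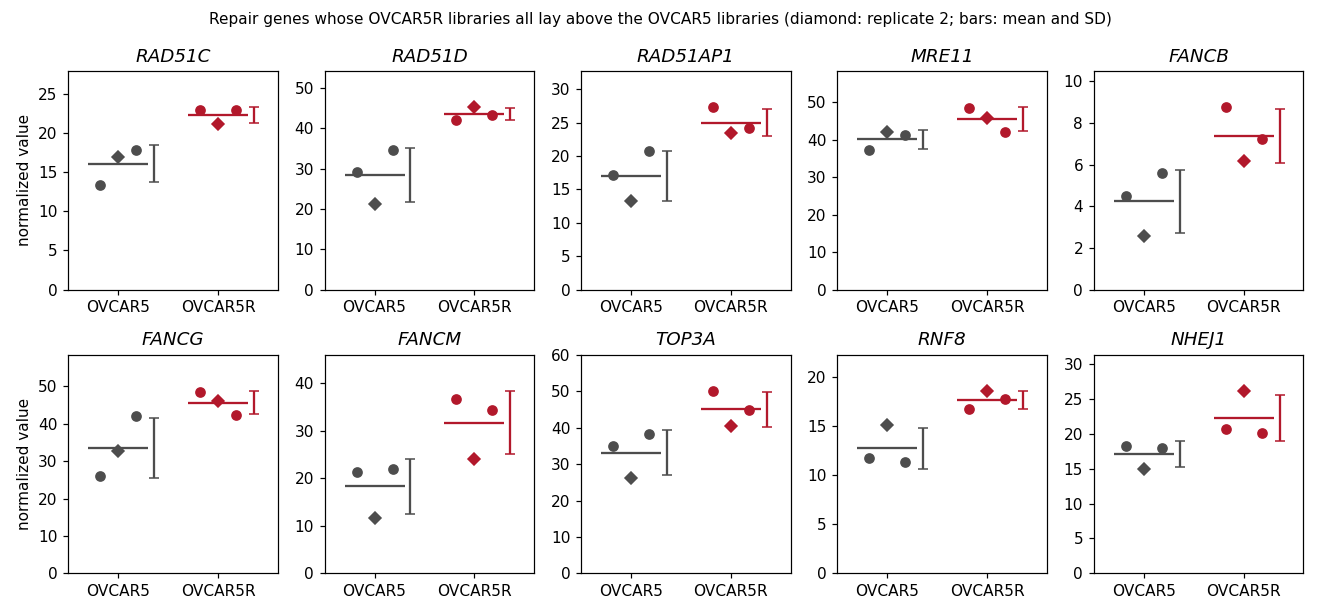
Normalized value in each library for the 10 repair genes whose OVCAR5R libraries all lay above the OVCAR5 libraries, with linear axes from 0. Diamonds are replicate 2 of each line, horizontal lines the means and bars the SD of 3 libraries. The gap in units is widest for RAD51D (7.5, with means of 28.4 and 43.5), though less than the range of 13.3 within OVCAR5. The groups nearly touch for MRE11 and FANCG.

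Among the 6 break signaling genes, RNF8 alone did not overlap, where 8.4% of all rows were higher and 8.18% lower without overlap. RNF8 is the ubiquitin ligase that acts on chromatin around a break and so recruits RNF168, 53BP1 and BRCA1 (chr6:37353972-37394738). It was at 11.7, 15.1 and 11.3 in OVCAR5 and 16.7, 18.5 and 17.7 in OVCAR5R. OVCAR5 replicate 2 was here the highest parental library, unlike for most members. The log2 fold change was 0.45 ± 0.22 (SE, adjusted p = 0.518, limma) and 0.58 without that library (adjusted p = 0.411), which made RNF8 the 1 member past an unadjusted p of 0.05 in that setting, where 4.32% of all rows were higher and 6.52% lower.

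The kinase and the reader proteins of the pathway were spread more within the lines than between them. ATM, the kinase that starts the response to a DSB, was at 148, 58.1 and 97.9 in OVCAR5 and 122.7, 73.6 and 99.6 in OVCAR5R. The parental libraries thus ranged more widely than the resistant ones and enclosed them, and the log2 fold change was 0.03 (95% interval -0.79 to 0.85). TP53BP1, which encodes the resection antagonist 53BP1, was at 117.8, 72.3 and 89.3 in OVCAR5 and 94.9, 103.3 and 97.9 in OVCAR5R, again enclosed by the parental range, with a log2 fold change of 0.11 (95% interval -0.40 to 0.63). MDC1, the adaptor that reads phosphorylated H2AX, was at 0.15 and RNF168 at 0.16 on the log2 scale, and RIF1, the effector of 53BP1, at -0.07. Without OVCAR5 replicate 2 the log2 fold changes of ATM, TP53BP1, MDC1 and RIF1 were -0.31, -0.06, -0.14 and -0.40.

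Of the 6 classical end joining genes, 4 were higher by their means and 1, NHEJ1, did not overlap, where 49.2% and 8.4% of all rows did so. Without OVCAR5 replicate 2, 2 of the 6 were higher by their means. NHEJ1 encodes XLF, which stimulates the final ligation (chr2:219075317-219160865), and was at 18.3, 15 and 18 in OVCAR5 and 20.7, 26.1 and 20.1 in OVCAR5R. The parental libraries were close together and replicate 2 of OVCAR5R was the highest. The estimate was a log2 fold change of 0.36 ± 0.22 (SE, adjusted p = 0.603, limma), and 0.27 without OVCAR5 replicate 2. PRKDC, the catalytic subunit of DNA-PK, was at 894.2, 307.6 and 843.9 in OVCAR5 and 775, 379.3 and 575.5 in OVCAR5R. Replicate 2 of each line was the lowest library of its line, and without OVCAR5 replicate 2 the 3 OVCAR5R libraries all lay under the remaining OVCAR5 libraries (log2 fold change -0.15 with all libraries, -0.65 without, adjusted p = 0.934 and 0.511, limma).

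The Ku subunits bind the broken ends. XRCC5 (Ku80) was at 624.6, 598.4 and 700.1 in OVCAR5 and 817.7, 721.3 and 668.6 in OVCAR5R, and its log2 fold change was 0.20 ± 0.20 (SE). XRCC6 (Ku70) was at 1161, 987.5 and 1376 in OVCAR5 and 838.6, 1639 and 1309 in OVCAR5R. The lowest and the highest of the 6 XRCC6 libraries were thus both OVCAR5R. The ligase LIG4 and its partner XRCC4 had log2 fold changes of 0.04 and -0.36. Polymerase theta, the enzyme of microhomology-mediated joining, and the helicase HELQ were the last members: POLQ was at 17.3, 10.9 and 20.1 in OVCAR5 and 19.6, 13.0 and 19.5 in OVCAR5R, with both lines lowest in replicate 2 (log2 fold change 0.12, 95% interval -0.56 to 0.81), and HELQ had a log2 fold change of -0.29.

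Per kilobase of the principal transcript, the Ku subunits stood far above the other members in both lines. The mean level of XRCC6 was 433.6 per kb in OVCAR5 and 465.9 in OVCAR5R, XRCC5 followed at 170.4 and 195.7, and PRKDC was at 50.5 and 42.7. UBE2T, at 49.2 and 54.4, was the most abundant Fanconi gene. The lowest mean levels per kb in OVCAR5 were those of FANCB (1.41), POLQ (1.84), BRIP1 (1.9) and RNF8 (2.25), whose library ranges overlapped from each to the next. In OVCAR5R the order began with POLQ (1.98), HELQ (2.09), FANCB (2.45) and BRIP1 (2.5).

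**Figure D4:**
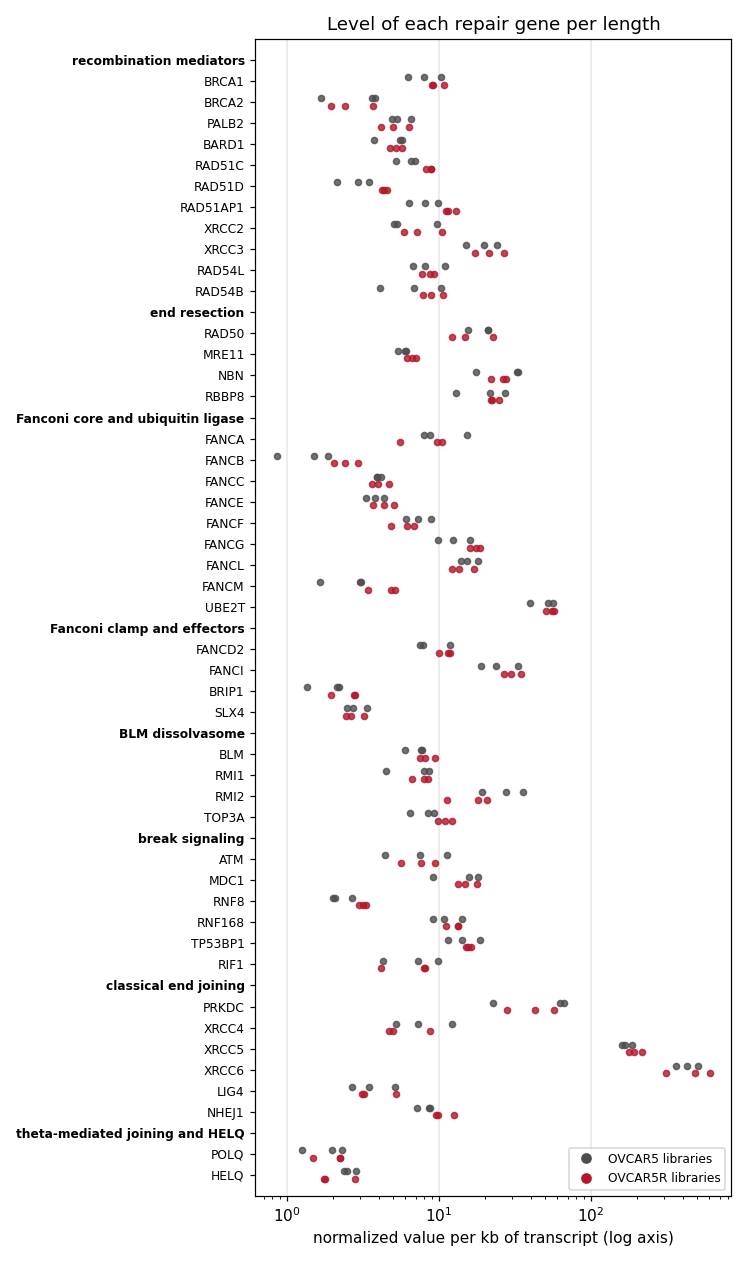
Normalized value per kilobase of the principal transcript (log axis) for each repair gene, with grey points for the 3 OVCAR5 libraries and red points for the 3 OVCAR5R libraries. XRCC6 and XRCC5 lie highest in both lines, and FANCB, POLQ, BRIP1 and HELQ are among the lowest.

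OVCAR5 replicate 2 was the lowest of the 6 libraries for 26 of the 46 members (56.5%), against 26.8% of all rows tested. Its median deviation from the OVCAR5 mean was -0.30 on the log2 scale over the members and -0.01 over all rows, and it was -0.45 for the end resection genes, -0.46 for break signaling and -0.01 for the Fanconi core. The members spread within OVCAR5 with a median SD of 0.34, which fell to 0.18 between replicates 1 and 3, and within OVCAR5R with 0.20. Transcript length moved with this library and, the other way, with OVCAR5 replicate 1. In OVCAR5 replicate 2 the 30 members longer than the median row (3272 bases) had a median deviation of -0.36 and the 16 shorter ones -0.11. For all rows these were -0.18 and 0.13. In OVCAR5 replicate 1 the longer and shorter members were at 0.15 and -0.13, and all rows at 0.16 and -0.12. OVCAR5 replicate 2 also stood apart on epithelial genes. EPCAM was at 597.2 in it where the other 5 libraries lay between 11.9 and 31.7. KRT19 was at 1341 in it where they lay between 3.09 and 10.7. Over the 5 epithelial markers with a row the summed level was 16369 in it, 2381 and 2295 in the other OVCAR5 libraries and 3174 to 4233 in OVCAR5R. The part of this in the repair genes was not tested.

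Without OVCAR5 replicate 2 the background moved too. Then 49.9% of all rows were higher in OVCAR5R by the mean, and 13.8% were higher and 13.7% lower without overlap. Leaving out a library cannot make separate groups overlap, so the 10 members had to remain, and their number says nothing of stability. In addition 2 members, NBN and PRKDC, were lower without overlap. The members' counts of 0 lower with all 6 libraries and 2 lower without OVCAR5 replicate 2 thus both lay under the share among all rows.

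The members were well covered. The estimated total per library was 35.8 to 55.1 M (1e6) reads, from the value that 1 read was worth, and the least expressed member had 89 to 387 estimated reads per library. Over all rows the Pearson correlation was 0.955 between OVCAR5 replicates 1 and 3, 0.883 and 0.898 between these and replicate 2, and 0.947 to 0.963 within OVCAR5R. Of 22 cell type markers 10 had a row; the ovarian marker PAX8 was at 8.38 to 11.4 in OVCAR5 and 4.38 to 5.66 in OVCAR5R, WT1 was under 1 in every library, and the stromal marker COL1A1 was at 1.29 to 15.2.

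Each member was also set beside its chromosomal neighbors. For each member, the 33 to 239 tested genes within 10 Mb on either side were taken, without the member itself. FANCM was the 1 member whose neighbors had a median log2 fold change above 0.2, as 3.69% of all rows did. The 66 neighbors of FANCM had a median of 0.57, and their median deviations from the OVCAR5 mean were 0.65, 0.50 and 0.59 in the 3 OVCAR5R libraries, where FANCM itself was at 1.01, 0.43 and 0.92. The neighborhood of FANCM was thus above the parental mean in every resistant library. Of the other 9 members without overlap none had a neighbor median above 0.2. RAD51D, for one, was at 0.58, 0.68 and 0.61 in the OVCAR5R libraries and its 218 neighbors at 0.11, 0.12 and 0.14.

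Neighbors with a median under -0.2 surrounded 7 members, as they did 10.8% of all rows, and in several the shift was present in some OVCAR5R libraries and not in others. The 70 neighbors of FANCA (chr16:89737549-89816657) had a median of -0.61, with deviations of -0.36, -0.43 and -1.04 in OVCAR5R, and FANCA was at 0.02, -0.08 and -0.88. Both were lowest in replicate 3. The neighbors of HELQ (chr4:83407343-83455856) were at -0.75, -0.64 and 0.01, and HELQ was at -0.48, -0.49 and 0.11. Gene and neighborhood were here low in replicates 1 and 2 alone. The neighbors of XRCC4 (chr5:83077498-83353787) were at 0.11, -0.20 and -0.60 and XRCC4 at 0.16, -0.58 and -0.65.

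The other 4 were PRKDC, XRCC6, XRCC2 and PALB2. Around PRKDC (chr8:47773108-47960183) the neighbors were at -0.05, -0.70 and -0.64 and PRKDC at 0.33, -0.70 and -0.10. Around XRCC6 (chr22:41621119-41664048) they were at -0.87, -0.69 and -0.15, whereas XRCC6 was at -0.47, 0.49 and 0.17. XRCC6 in OVCAR5R replicate 2 was therefore above the parental mean within a lowered neighborhood. Neighbors of XRCC2 were at -0.75 in OVCAR5R replicate 1 only, where XRCC2 was at -0.10. Those of PALB2 had a median of -0.26. They were at -0.43, -0.15 and -0.19 in OVCAR5R, and PALB2 was at -0.39, 0.18 and -0.14. Over the list, 37 of 46 members (80.4%) lay above the median of their neighbors, where 50.0% of all rows did. Its sign was shared by 34 of 46 members, where 63.0% of all rows did so. Both counts used all 6 libraries, among them OVCAR5 replicate 2, on which the tilt of the whole list rested. These are expression values, and DNA copy number was not measured in the data used here.

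**Figure D5:**
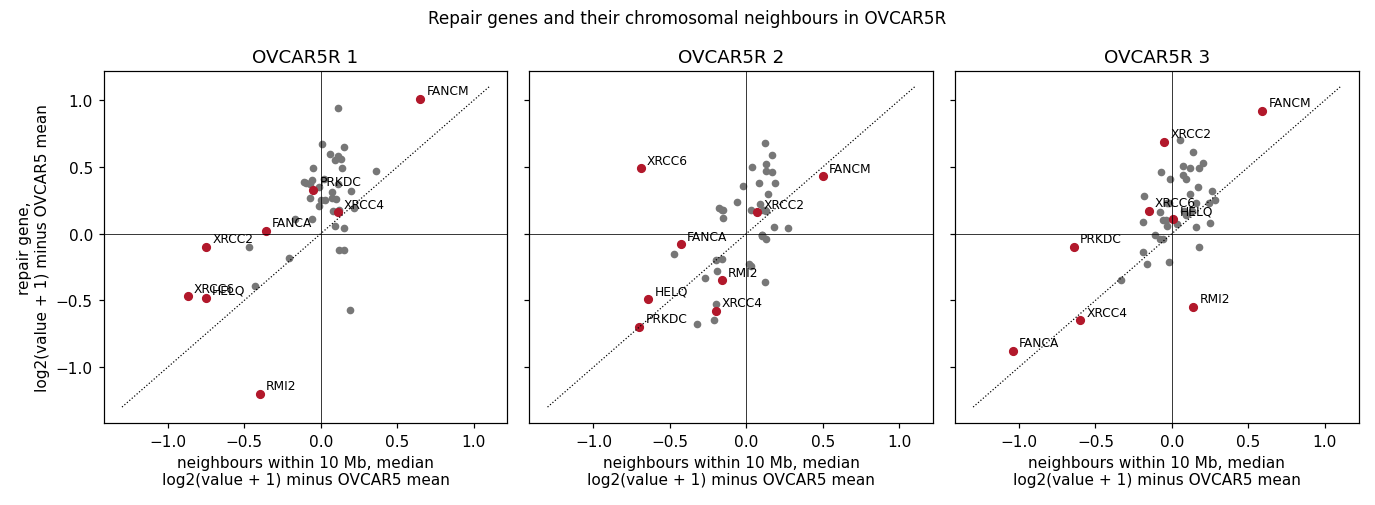
Each repair gene in OVCAR5R replicates 1, 2 and 3 against the median of its neighbors within 10 Mb, both as log2(value + 1) minus the OVCAR5 mean, with the dotted line marking equality. FANCM lies at the upper right in all 3 panels, FANCA at the lower left in replicate 3 only, and HELQ at the lower left in replicates 1 and 2.

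A wider list of 69 genes of the same pathways, listed by role, was set beside the members, and the difference between the lists was not tested. Of the 62 that were tested, 37 (59.7%) were higher by their means, against 49.2% of all rows. At an unadjusted p of 0.05, 5 (8.06%) were higher and 0 lower, against 4.14% and 6.25% of all rows. Without overlap 5 (8.06%) were higher and 3 (4.84%) lower, against 8.4% and 8.18%. The median log2 fold change was 0.12. Without OVCAR5 replicate 2, 61.3% were higher by their means and the median was 0.03.

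MAD2L2, the REV7 subunit of polymerase zeta and of the shieldin complex that limits resection, had the smallest p of the wider list. It was at 40.4, 56.0 and 42.7 in OVCAR5 and 77.5, 78.5 and 64.6 in OVCAR5R. The groups did not overlap, though the gap was less than the range within either line. The log2 fold change was 0.66 ± 0.21 (SE, adjusted p = 0.342, limma). SWI5, which forms a complex with SFR1 in HR, was at 21.2, 25.9 and 24.7 in OVCAR5 and 31.7, 38.8 and 35.2 in OVCAR5R (log2 fold change 0.54, adjusted p = 0.419, limma), while SFR1 was level at -0.02.

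The long-range resection nucleases EXO1 and DNA2 had log2 fold changes of 0.77 and 0.60 (adjusted p = 0.447 and 0.472, limma). EXO1 was at 22.0, 15.3 and 34.3 in OVCAR5 and 44.6, 33.4 and 40.5 in OVCAR5R and overlapped, and DNA2 was at 14.9, 11.4 and 18.7 in OVCAR5 and 27.1, 19.5 and 22.4 in OVCAR5R and did not. FIRRM, a partner of FIGNL1 (row C1orf112), was at 16.1, 16.0 and 20.5 in OVCAR5 and 24.7, 24.4 and 27.5 in OVCAR5R (log2 fold change 0.53, adjusted p = 0.448, limma). HROB (row C17orf53), which loads the MCM8 and MCM9 helicase, was at 10.8, 14.0 and 14.9 in OVCAR5 and 15.6, 21.1 and 16.1 in OVCAR5R. Both were separated from the parental libraries.

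The 3 genes lower without overlap had small differences. ZSWIM7, a partner of SWSAP1 in HR, was at 8.07, 11.3 and 8.02 in OVCAR5 and 6.63, 7.79 and 5.81 in OVCAR5R. SPIDR, a scaffold protein of HR that binds BLM, was at 55.3, 47.2 and 51.2 in OVCAR5 and 46.7, 43.4 and 38.0 in OVCAR5R. DCLRE1C, the Artemis nuclease of end joining, was at 11, 11.3 and 10.5 in OVCAR5 and 9.29, 9.0 and 9.65 in OVCAR5R. Their log2 fold changes were -0.38, -0.26 and -0.21, and none passed an unadjusted p of 0.05.

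Since many repair genes follow the cell cycle, 14 S phase and 14 G2/M genes were set beside them. The S phase genes had a median log2 fold change of 0.16, with 8 of 14 higher by their means and 2 (CDC6 and UNG) higher without overlap. The G2/M genes had a median of 0.28, with 9 of 14 higher, 0 higher without overlap and 1 (CCNA2) lower. Of all rows 49.2% were higher by the mean, and 8.4% were higher and 8.18% lower without overlap. With all 6 libraries the medians of the cell cycle lists were at least as large as the 0.16 of the repair genes. Without OVCAR5 replicate 2 they were 0.09 for S phase and 0.11 for G2/M, beside 0.01 for the repair genes. By library the G2/M median deviation was -0.17, -0.31 and 0.46 in OVCAR5 and 0.47, 0.11 and 0.14 in OVCAR5R, and that of the repair genes 0.04, -0.30 and 0.23 and 0.26, 0.14 and 0.17. OVCAR5 replicate 2 was the lowest and OVCAR5R replicate 1 the highest library on these lists. The S phase genes had another order, with -0.16, -0.05 and 0.18 in OVCAR5 and 0.12, 0.13 and 0.08 in OVCAR5R, so that OVCAR5 replicate 1 was lowest and OVCAR5 replicate 3 highest. The part of the cell cycle in the repair values was not tested.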

How the data were processed

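RNA-seq was done on 3 OVCAR5 and 3 OVCAR5R libraries. The authors deposited 1 table of normalized expression signal on a linear scale (12309 rows, of which 1 identical copy was dropped), quartile normalized per the study's methods, on hg38 per the labels. The aligner, the counter, the gene annotation and the strand setting are not given in the sources used here. Between 62.0% and 66.6% of values were whole multiples of 1 estimated read (tolerance 0.01), so no count test was run.

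Values were tested as log2(value + 1) with limma 3.58.1 (eBayes with trend, R 4.3.3) on the 11766 rows at 1 or more in at least 3 libraries, with Benjamini-Hochberg adjustment over these rows, after tests on simulated data. Groups came from the labels. The members, the lists and the rule for named genes (an unadjusted p under 0.05, no overlap, or membership of a fixed set of core genes) were chosen with earlier results of these data known. Intervals are 95%. Positions and principal transcript lengths came from GENCODE 29 (GRCh38). The p-values set the difference between the lines against the spread between cultures, which limma moderates over the rows. In OVCAR5 that spread includes replicate 2, which stood apart on epithelial genes. Values of 1 gene of the wider list are not reported here.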

Additional observations from a re-analysis of the deposited data

How the results depend on the processing

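With 3 libraries a line no member passed an adjusted p of 0.05 in any setting tried (the smallest adjusted p was 0.234), so the counts at an unadjusted p and without overlap are the ones that can move. Leaving out each library in turn gave 23 to 37 members higher by the mean, 0 to 7 higher and 0 to 1 lower at an unadjusted p under 0.05, and 10 to 16 higher and 1 to 3 lower without overlap. The extremes of 7 and 16 came without OVCAR5 replicate 3, and 0 members passed without OVCAR5R replicate 1 or 3. Leaving out a library can only add to the counts without overlap, for any gene. Without OVCAR5 replicate 2, 13.8% of all rows were higher and 13.7% lower without overlap. At an unadjusted p under 0.05 (limma) these shares were 4.32% and 6.52%. The shares of all rows for the other omissions are not given here, so the 7 and the 16 have none beside them. For the wider list these counts were 1 to 7 higher at an unadjusted p, and 7 to 15 higher and 3 to 7 lower without overlap. Quantile normalization gave 8 higher and 0 lower without overlap for that list. Shares of all rows are not given here for quantile normalization or for omissions other than OVCAR5 replicate 2. The wider list's counts in those settings thus have none beside them. The median log2 fold change ran from -0.23 to 0.13 for end resection, 0.02 to 0.21 for the Fanconi core, 0.00 to 0.31 for the BLM dissolvasome and 0.04 to 0.30 for the S phase genes. Members with a neighbor median beyond 0.2 numbered 7 to 13.

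Some log2 fold changes changed sign when single libraries were left out. Among the 17 members picked by the rule for named genes these were BRCA2 (-0.50 to 0.07), ATM (-0.31 to 0.35), TP53BP1 (-0.06 to 0.29), PRKDC (-0.65 to 0.12) and POLQ (-0.12 to 0.31). Members outside that rule did so too, among them PALB2 (-0.27 to 0.02), NBN (-0.38 to 0.07), RBBP8 (-0.08 to 0.45), MDC1 (-0.14 to 0.35) and RIF1 (-0.40 to 0.24). With array weights the log2 fold changes of ATM, TP53BP1 and POLQ were -0.24, -0.00 and -0.02. Over all rows the deviations of same-numbered libraries correlated at -0.004, 0.176 and -0.119, and those of different-numbered ones at -0.193 to 0.251. Among the members, replicate 2 was the lowest OVCAR5 library for 67.4% and the lowest OVCAR5R library for 52.2%. Over all rows these shares were 39.7% and 33.0%, so a pairing by number is not settled for the members. The replicate block gave 1 member lower at an unadjusted p under 0.05 (limma), with no share of all rows given here. Over all rows the 2 higher and 12 lower calls at an adjusted p became 8 and 21 without OVCAR5 replicate 2. The cause was not tested. The other settings (no trend, no filter, a filter at 5, a pseudocount of 0.1, 5 Mb) moved no count by over 1.5 times.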
